A study of Mus musculus with 36 samples.

Results

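The genes described here are those of the nuclear-encoded subunits of the mitochondrial respiratory chain and ATP synthase. They were chosen by gene name: array probes whose name began with Ndufa, Ndufb, Ndufc, Ndufs, Ndufv, Sdha to Sdhd, Uqcr, Cox4 to Cox8 or Atp5, without the Ndufaf assembly factors. A probe counted as detected where its detection p-value, the chance of so bright a signal from background, was under 0.05, and it had to be detected on at least 4 arrays. Of 80 gene names, 72 passed, among 14413 genes measured in all, and the brightest probe stood for each gene. The names Cox4i2, Cox7b2, Cox8b, Cox8c, Ndufs1, Sdha, Uqcrfs1 and Uqcrq did not pass, so nothing was read from their probes. The 72 held 33 genes of complex I, 3 of complex II, 5 of complex III, 13 of complex IV and 14 of complex V. The other 4 only share the name prefix: Dmac2l (on the array as Atp5s), Dmac2 (Atp5sl), Emc8 (Cox4nb) and Ndufaf2 (Ndufa12l).

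The respiratory chain sits in the inner mitochondrial membrane. Complex I (NADH dehydrogenase) and complex II (succinate dehydrogenase) pass electrons to coenzyme Q, complex III passes them on to cytochrome c, and complex IV (cytochrome c oxidase) hands them to oxygen. Proton pumping by complexes I, III and IV drives ATP synthase, complex V. All complexes except II combine many nuclear-encoded subunits with a few made from mitochondrial DNA, and several subunits of complex IV have paired isoforms made in different tissues. In macrophages, inflammatory activation is known to shift energy metabolism between the chain and glycolysis.

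RNA of mouse bone-marrow macrophages, grown with M-CSF, was measured on 36 Illumina bead arrays. The C57BL/6 mice were 2 to 5 months old and were either LXRa/LXRb dko, without both liver X receptors (nuclear receptors that sense oxysterols), or wt. For each genotype the groups were cholesterol crystals for 3 h followed by 10 mM cyclodextrin (CD, a sugar ring that binds cholesterol) for 4 h, crystals alone, CD alone, and untreated cells. Each dko group held 4 arrays and each wt group 5, and as the labels do not say whether an array number stands for an animal or a culture, the p-values measure only the spread between arrays. Crystals not taken up were rinsed off before CD. The study asked whether CD acts on macrophage genes through the liver X receptors.

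All 8 macrophage markers tested, among them Adgre1, Csf1r and Cd68, were detected on all 36 arrays. Some of the 8 were called lower with treatment. Mertk changed by -1.44 in wt and -1.38 in dko with CD alone. In dko it also changed by -1.44 with CD after crystals and -1.34 with both agents. Fcgr1 changed by -1.43 in wt and -1.70 in dko with both agents, and Itgam by -0.87 in wt with crystals. Between 15342 and 17892 probes were detected per array. Probes of the targeted genes were not lower in untreated dko cells: Nr1h3 averaged 9.81 in dko and 9.52 in wt on the log2 scale, and Nr1h2 averaged 9.36 in dko and 8.89 in wt. No label or file says if these probes lie in the deleted parts, so they do not check the genotype labels. The summed level of 8 stromal markers ran from 3781 to 8763 on dko arrays and from 1345 to 4945 on wt arrays, and that of the 5 neutrophil markers passing the filter, of 9, from 176 to 1006 on dko arrays and from 131 to 203 on wt arrays (linear scale). Of the mast cell list, Kit was higher with crystals in both genotypes, by 2.46 in dko (adjusted p = 7.49e-06) and 3.88 in wt (adjusted p = 2.74e-12), while Fcer1a changed by -0.15 in dko and -0.05 in wt. These 2 passing members of 5 summed to 117 to 209 on dko arrays with crystals and 45.1 to 60.3 on dko arrays without, and to 176 to 620 on wt arrays with crystals and 39.3 to 50.9 on wt arrays without. Tpsb2 was detected on 0 arrays and Mcpt8 on 1. The part of these other cell types in the results below was not tested, and in bulk RNA fewer cells of a type and less RNA per cell cannot be told apart.

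Few respiratory chain genes were called. In wt macrophages, crystals called 2 of the 72 genes higher (Cox6a2 and Uqcrb) and 2 lower (Cox7a2l and Dmac2) at an adjusted p under 0.05. These are 5.56% of the 72, where 14% of all genes were called: 6.89% higher and 7.11% lower. The lower share among the 72 was not seen in every setting. With array numbers 4 to 9 only, 1.39% of the 72 and 0.534% of all genes were called, and in the authors' deposited log2 values 1.39% of the 72 and 0.895% of all genes. After crystals and CD together, 2 were higher and 1 lower in dko, where 8.1% of all genes were called (4.07% higher and 4.02% lower). In wt, 2 were higher and 2 lower, where 16.2% were called (7.49% higher and 8.73% lower). Over 13 comparisons, 67 of the 72 genes were called in none by the brightest probe. Of 27 further probes for these genes, 4 were called in at least 1 comparison and are given with their genes. By comparison, the share of all genes called ran from 0% to 16.2%. The shares of all genes and of all probes called in at least 1 comparison were not counted, so these 2 counts have no such measure beside them. Of the called genes, Cox6a2, Uqcrb, Uqcrh and Dmac2 each had only 1 probe on the array. No second probe could thus be set beside their calls.

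The median log2 change of the 72 genes was small everywhere. With crystals alone it was -0.05 in dko and -0.07 in wt, against medians over all genes of -0.01 in both. With crystals and CD it was -0.12 in dko (52 of 72 below 0) and -0.11 in wt (56 of 72 below 0), against -0.02 in both over all genes. Taken per array, the median level of the 72 genes was 10.01 to 10.06 in dko cells with crystals and CD, against 10.15 to 10.27 in untreated dko cells, with no overlap. In wt it was 9.95 to 10.13 with crystals and CD, against 10.05 to 10.13 in untreated wt cells, where the ranges overlap. For 49 of the 72 genes, or 68.1%, the 95% interval of the crystal change in wt lay wholly within 0.5 log2 units of 0, as it did for 49.3% of all genes. For dko the number was 48 of 72, or 66.7%, against 51.4% of all genes. A change of that size or more is thus outside the interval for most of the 72 genes. For the others the interval reached that size or went past it. The interval of Cox6a2 lay wholly above 0.5, at 0.79 to 1.93 in dko and 1.38 to 2.40 in wt. Across the 8 group means, a subunit's highest and lowest level differed by a median of 0.36, against 0.44 over all genes. Only Cox6a2, with 2.49, and Uqcrb, with 1.03, had a range above 1.

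**Figure D1:**
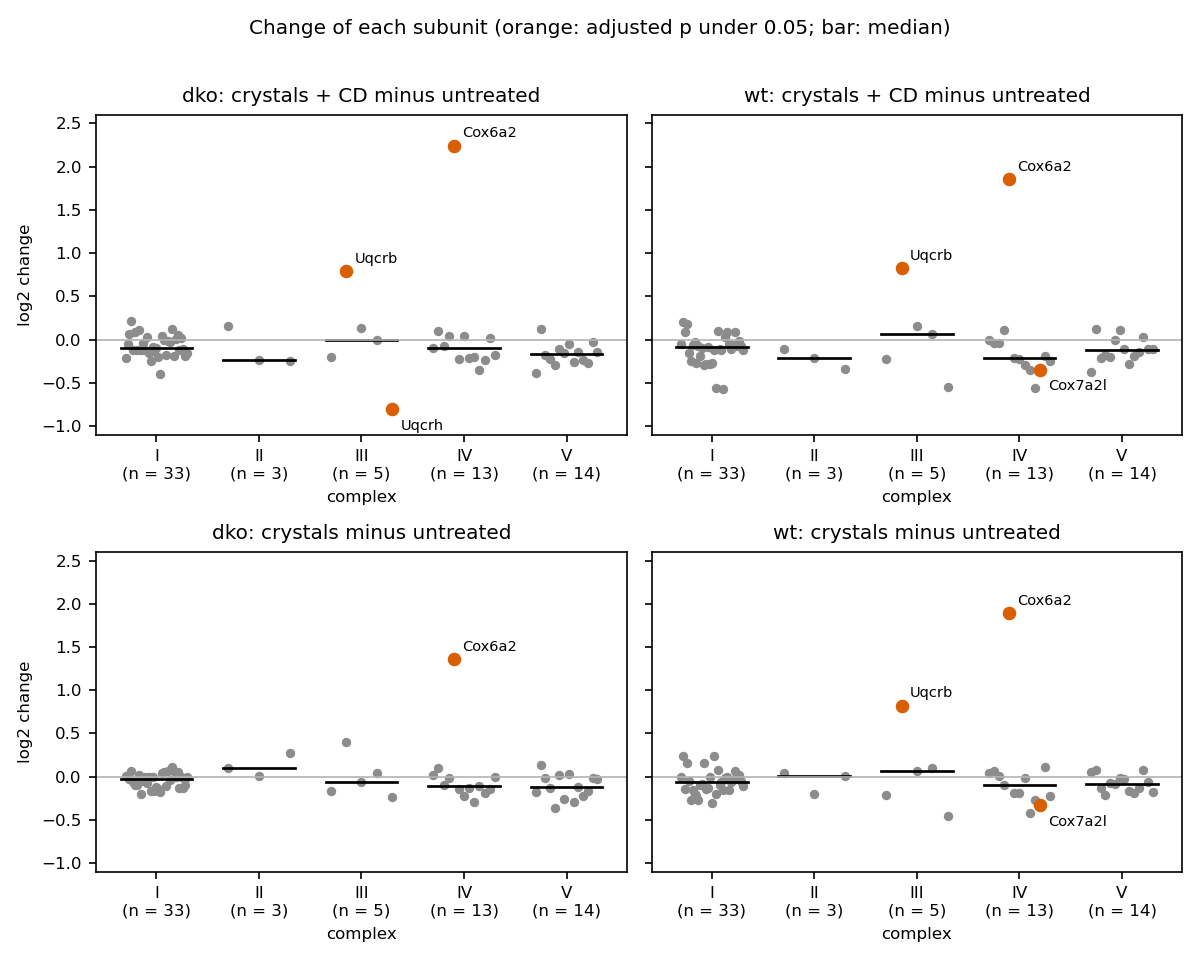
Log2 change (vertical axis) of each of the 68 subunits, one point per gene, by complex (horizontal axis, with the number of genes), in dko (left) and wt (right), for crystals with CD (top) and crystals alone (bottom), each minus untreated cells. Orange points passed an adjusted p of 0.05 and are named, bars are medians. Cox6a2 stands highest in all 4 panels, at 1.36 to 2.24. Among the grey points, Ndufb9 (-0.57), Cox7a2 (-0.56) and Ndufb5 (-0.56) lie lowest in wt with crystals and CD.

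Complex I is the largest assembly and the chain's main entry point for electrons. By the probe that stood for each gene, none of its 33 measured subunits was called in any of 13 comparisons by limma, and 15 of those 429 tests, or 3.5%, had an unadjusted p under 0.05. Over all genes, the share with an unadjusted p under 0.05 ran from 1.72% to 27.1% by comparison. Beside the further pooled counts at an unadjusted p below stands the same range. No share pooled over the 13 comparisons was taken for all genes. In wt with crystals and CD, the share was 12.1% of the complex I subunits and 27.1% of all genes. Second probes gave calls for 2 of these genes. For Ndufb8, an accessory subunit of the membrane arm, the second probe fell by 0.72 in dko (adjusted p = 0.00042) and by 0.60 in wt (adjusted p = 0.000249) with crystals and CD, and by 0.54 in dko with CD alone (adjusted p = 0.0203). The brighter Ndufb8 probe gave -0.18, -0.12 and -0.08 there, so the probes disagree. A second probe of Ndufb6, another accessory subunit, rose by 0.53 in dko with crystals and CD (adjusted p = 0.025), where the brighter one gave 0.04. The lowest adjusted p was 0.0516, for Ndufb9, an accessory subunit of the membrane arm, which averaged 0.57 lower (SE 0.20) in wt cells with crystals and CD than in untreated wt cells. It was called where only genes detected on all arrays were tested (adjusted p = 0.0371) and with slide as a block (-0.64, adjusted p = 0.0219). Core subunits of complex I, among them some that bind the flavin or iron-sulphur clusters, are given by level. Ndufs8 had group means between 10.05 and 10.24, Ndufs3 between 9.57 and 9.84, Ndufv2 between 11.03 and 11.23 and Ndufv1 between 10.69 and 11.04. The median of all 33 subunits on an array lay between 9.95 and 10.31 in dko and between 9.81 and 10.18 in wt, with overlapping ranges in all 8 groups. Ndufs7, another of the core subunits, had group means from 10.95 to 11.32.

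Complex II belongs to both the chain and the TCA cycle. Its measured subunits are the iron-sulphur subunit Sdhb and the membrane anchors Sdhc and Sdhd, and no comparison called them (2 of 39 tests at an unadjusted p under 0.05). Sdhb group means ran from 9.44 to 9.86 and those of Sdhc from 10.21 to 10.54. Sdhd had the widest spread between replicate arrays of the 72 genes, with an SD of 0.45 against a median of 0.19, and its group means from 6.66 to 7.33 do not stand apart at that spread.

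In complex V, the F1 subunits make ATP and the c-ring subunits turn in the membrane. None of 14 measured subunits was called in any comparison by limma, and 5 of 182 tests had an unadjusted p under 0.05. The catalytic subunit Atp5b had group means between 13.30 and 13.52, its partner Atp5a1 between 8.58 and 9.15, and the central stalk subunit Atp5c1 between 11.85 and 12.10. Atp5g2 and Atp5g3 encode the same c-ring protein. Atp5g2 averaged 9.61 ± 0.23 in dko (SD, n = 4) and 9.66 ± 0.26 in wt (SD, n = 5) after crystals and CD, against 9.77 ± 0.14 in untreated dko and 9.55 ± 0.20 in untreated wt. Atp5g3 averaged 13.06 ± 0.06 in dko and 13.01 ± 0.16 in wt after crystals and CD, against 13.11 ± 0.12 in untreated dko and 13.12 ± 0.07 in untreated wt. Most changes in complex V after crystals and CD lay below 0, although no single gene passed. The array median of its 14 subunits was 10.15 to 10.21 in dko cells with crystals and CD, against 10.33 to 10.45 in untreated dko cells, and 10.12 to 10.20 in wt cells with crystals and CD, against 10.29 to 10.55 in untreated wt cells. These ranges do not overlap in either genotype. After crystals and CD, 13 of 14 subunits lay below 0 in dko and 11 of 14 in wt, with medians of -0.17 and -0.13 log2. Over all genes, 45.8% lay above 0 in dko and 47.3% in wt. The lean was not particular to both agents or to complex V. With CD alone in dko, 13 of 14 lay below 0 (median -0.14), with array medians of 10.18 to 10.26. With crystals alone, 11 of 14 did in each genotype. In complex IV, 11 of 13 lay below 0 in wt with both agents (median -0.21).

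**Figure D2:**
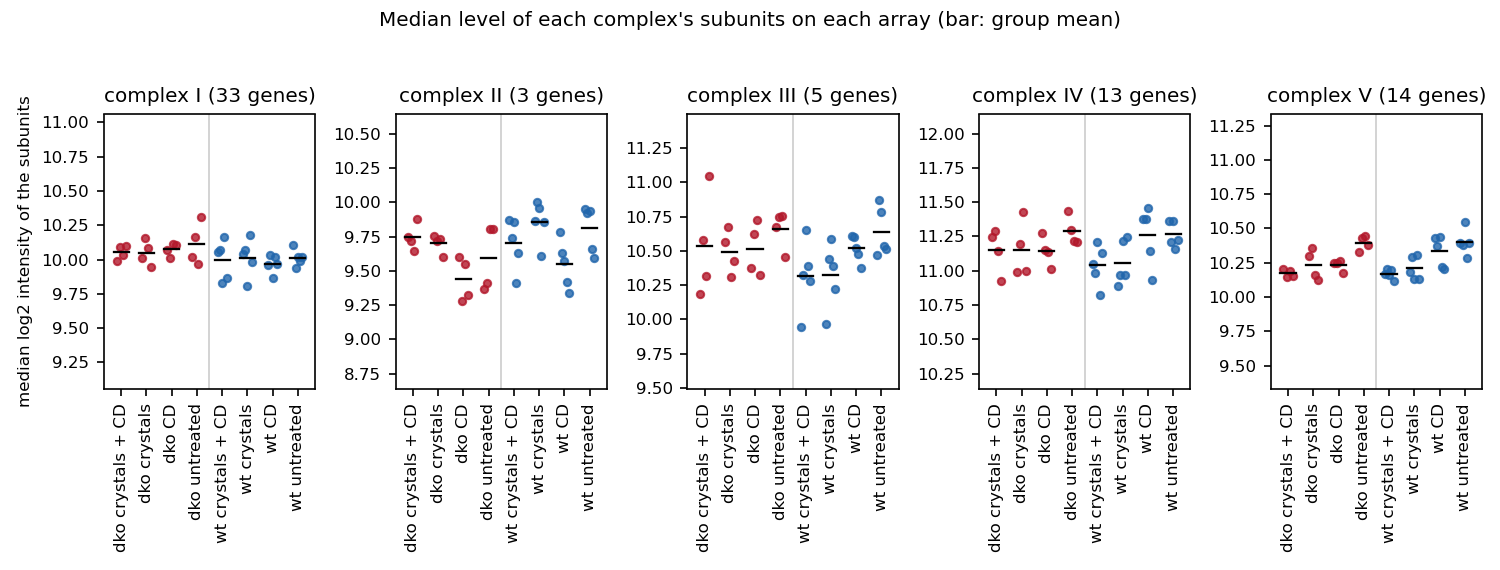
Median log2 intensity over the measured subunits of each complex on each array (vertical axis, 2 log2 units in every panel) for the 8 groups (horizontal axis), dko in red and wt in blue, bars at group means. The complex I medians overlap in all groups, while those of complex V after crystals and CD lie between 10.12 and 10.21, below the untreated arrays of both genotypes.

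The chain also holds subunits made from mitochondrial DNA. Of 13 such genes, 7 were followed here, and 0 of the 7 were called in any comparison (1 of 91 tests at an unadjusted p under 0.05). The median change of these 7 with crystals in wt was -0.0042, against -0.01 over all genes. A probe of mt-Atp6 was also detected on 36 arrays, but it was not among the 7 and its changes were not read.

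Complex III held changes in both directions. Uqcrb is a small subunit near the quinone-binding site. It measured 7.62, 6.96, 7.33 and 6.98 in dko cells with crystals and CD, against 6.09, 6.50, 6.38 and 6.74 in untreated dko cells. In wt it measured 7.65, 7.21, 7.01, 7.88 and 7.56 with crystals and CD, 7.76, 7.28, 7.58, 7.33 and 7.33 with crystals alone, and 6.94, 6.36, 6.82, 6.39 and 6.65 in untreated cells. All arrays of these treated groups lay above all untreated arrays of their genotype. Uqcrb rose 1.73-fold in dko with crystals and CD (log2 change 0.79, SE 0.21, adjusted p = 0.0175) and 1.77-fold in wt (0.83, SE 0.19, adjusted p = 0.00239). With crystals alone it rose in wt by 0.82 (SE 0.19, adjusted p = 0.00291), and the dko change of 0.40 (SE 0.21) had an adjusted p of 0.693. The difference between these crystal changes, dko minus wt, was -0.42 (95% interval -1.01 to 0.16), so the genotypes were not shown to differ. The dko call with both agents was lost without array number 6 (0.55, adjusted p = 0.24) or 8 (0.74, adjusted p = 0.136). In the authors' deposited log2 values all 3 Uqcrb calls were lost (0.47 in dko with both agents, adjusted p = 1, and 0.59 with both agents and 0.55 with crystals in wt, adjusted p of 0.259 and 0.369). With array numbers 4 to 9 only, the wt crystal call was lost (0.81, adjusted p = 0.269).

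Uqcrh, the hinge protein that helps cytochrome c dock on cytochrome c1, went the other way. It measured 10.06, 9.50, 10.09 and 9.21 in dko cells with crystals and CD, against 10.68, 10.75, 10.75 and 9.93 in untreated dko cells. One untreated array, at 9.93, fell within the treated range, and the other 3 lay above it. Uqcrh fell to 0.571 of its untreated level in dko (log2 change -0.81, SE 0.22, adjusted p = 0.0166). In wt it measured 9.94, 10.32, 10.02, 10.03 and 10.12 with crystals and CD, against 10.47, 10.87, 10.78, 10.53 and 10.52 in untreated cells. These wt ranges did not overlap, but the change of -0.55 (SE 0.19) just missed the threshold at an adjusted p of 0.0503. It passed where only genes detected on all arrays were tested (adjusted p = 0.0362). The dko call was lost without array number 7 (-0.66, adjusted p = 0.0814), with median scaling (-0.74, adjusted p = 0.0522) and in the authors' deposited log2 values (-0.67, adjusted p = 1). The structural core proteins Uqcrc1 and Uqcrc2 had group means between 10.06 and 10.53 and between 11.50 and 11.65, and Uqcr11 was not called in any comparison.

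Complex IV gave the largest response of all 72 genes, in one isoform of one subunit. Cox6a2 encodes the subunit VIa isoform known from heart and skeletal muscle, where it takes the place of the widely expressed Cox6a1. Cox6a2 measured 8.16, 8.19, 8.55 and 8.51 in dko cells with crystals and CD, 7.06, 7.60, 7.58 and 7.63 with crystals alone, 7.25, 6.91, 7.31 and 7.28 with CD alone, and 6.44, 5.60, 5.74 and 6.66 in untreated dko cells. Each treated dko group lay wholly above the untreated dko arrays. In wt it measured 7.84, 7.21, 6.75, 8.64 and 8.12 with crystals and CD, 7.95, 7.40, 7.67, 7.86 and 7.87 with crystals alone, 6.27, 6.50, 6.10, 6.35 and 7.17 with CD alone, and 5.93, 5.39, 5.68, 6.17 and 6.13 in untreated wt cells. Both wt groups with crystals lay above all untreated arrays, and CD alone overlapped them.

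With crystals alone Cox6a2 rose 2.56-fold in dko (log2 change 1.36, SE 0.28, adjusted p = 0.0128; 0.416% of all genes called, 0.236% higher and 0.18% lower) and 3.71-fold in wt (1.89, SE 0.25, adjusted p = 2.65e-06). With crystals and CD it rose 4.73-fold in dko (2.24, SE 0.28, adjusted p = 7.82e-06) and 3.61-fold in wt (1.85, SE 0.25, adjusted p = 4.19e-06). CD alone raised it 2.11-fold in dko (1.08, SE 0.28, adjusted p = 0.0381), the only one of the 72 genes called there, where 1.71% of all genes were called (1.13% higher and 0.583% lower). That last call was lost when any single dko array number was left out (adjusted p between 0.0699 and 0.328), and the dko crystal call without number 7 (1.14, adjusted p = 0.3) or 8 (adjusted p = 0.235). In the authors' deposited log2 values neither of these 2 was called (0.58, adjusted p = 0.824, for CD alone and 0.77, adjusted p = 1, for crystals), nor was CD alone with no detection filter (adjusted p = 0.0779). In wt, CD alone gave 0.62 (SE 0.25, adjusted p = 0.377). Taken slide by slide, where a slide carried arrays of both groups, the change was 2.81, 1.62 and 2.91 in dko with crystals and CD, and 1.61, 1.73 and 2.42 in wt with crystals.

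**Figure D3:**
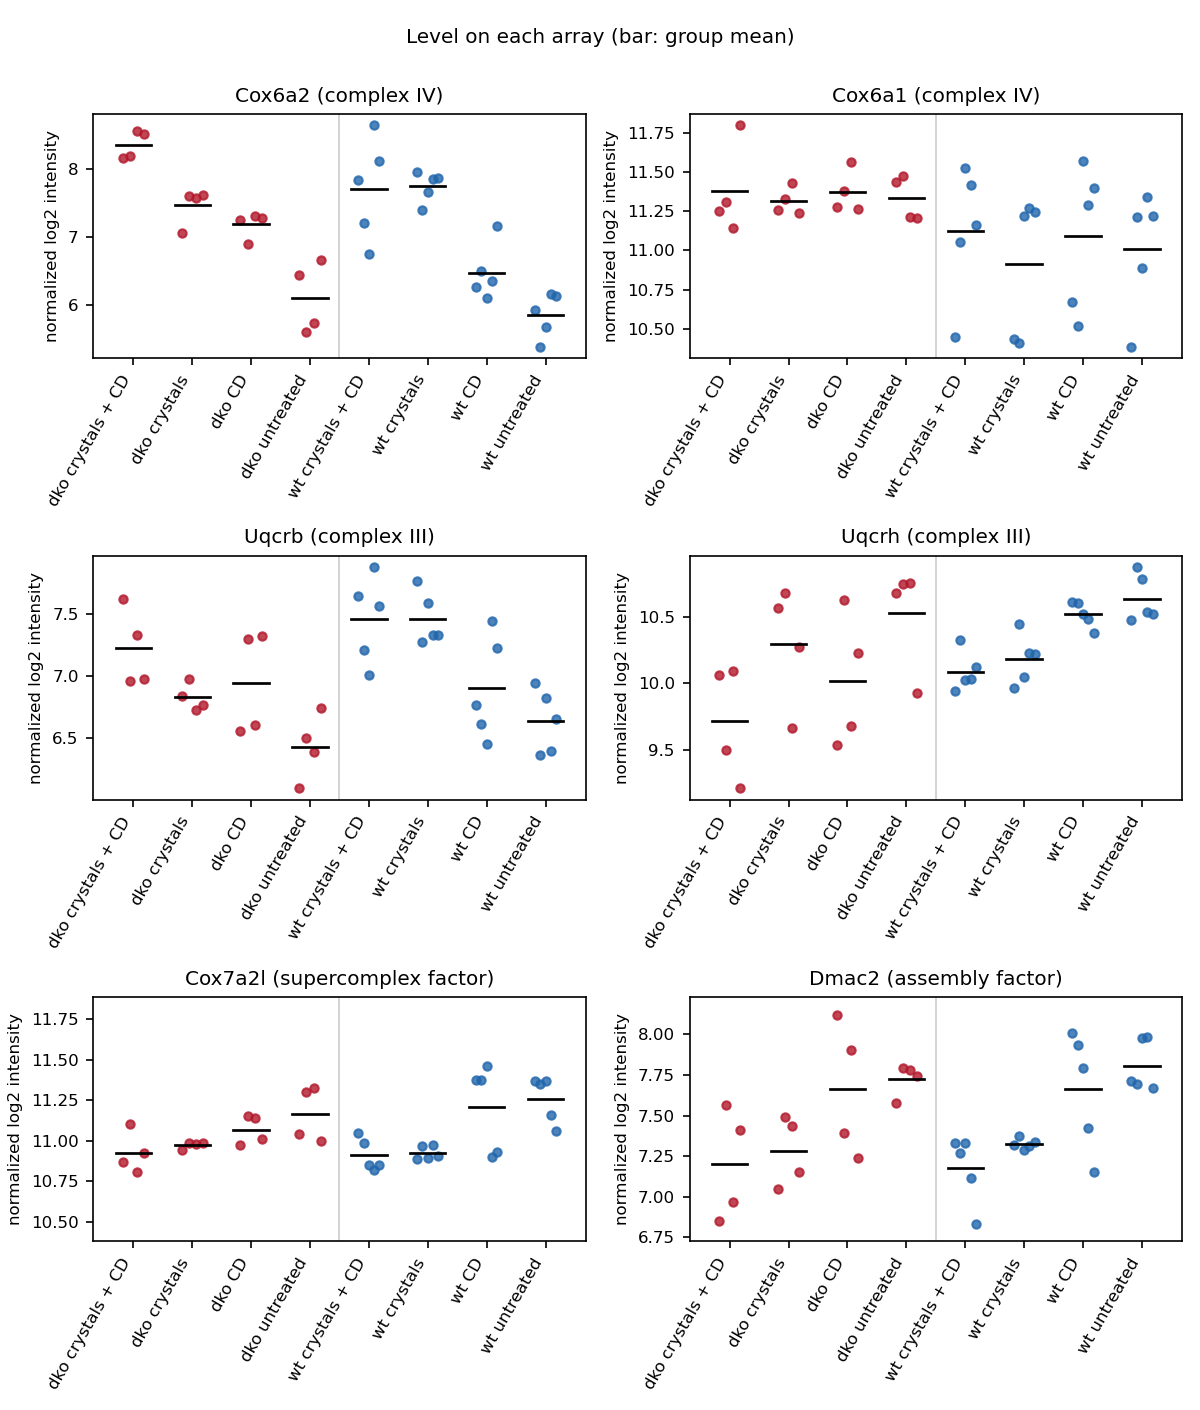
Normalized log2 intensity (vertical axis) on each array for 6 genes in the 8 groups (horizontal axis), dko in red and wt in blue, bars at group means. Cox6a2 lies at 8.16 to 8.55 in dko cells with crystals and CD, against 5.60 to 6.66 in untreated dko cells, while Cox6a1 shows no such step and has low arrays in every wt group.

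The other isoform was called in no comparison. Cox6a1 averaged 11.38 ± 0.29 in dko cells with crystals and CD and 11.33 ± 0.14 in untreated dko cells (SD, n = 4 each), and 11.12 ± 0.42 in wt cells with crystals and CD and 11.01 ± 0.39 in untreated wt cells (SD, n = 5 each). Its crystal change was -0.02 in dko (95% interval -0.50 to 0.46) and -0.09 in wt (-0.53 to 0.34). A second Cox6a1 probe gave -0.13 in wt. Cox7a1, another isoform known from muscle, changed by -0.30 in dko (SE 0.21, adjusted p = 0.865) and by -0.42 in wt (SE 0.19, adjusted p = 0.165) with crystals. Of 10 muscle genes chosen after these values were seen, among them Ckm, Acta1 and Myh4, 9 were detected on at most 3 arrays and Mylpf on 31. On chromosome 7, the integrin genes Itgax and Itgad near Cox6a2 were not called: with crystals in wt they changed by 0.11 (adjusted p = 0.804) and 0.0069 (adjusted p = 0.994), while Itgam fell by 0.87 (adjusted p = 0.00492). These neighbours were also picked after the values were seen.

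Among the ubiquitous complex IV subunits, Cox4i1 had group means between 12.76 and 12.90, Cox5a between 12.05 and 12.29 and Cox5b between 11.93 and 12.18. Cox6b1 averaged 12.44 ± 0.22 in dko and 12.20 ± 0.07 in wt after crystals and CD, against 12.66 ± 0.09 in untreated dko and 12.42 ± 0.08 in untreated wt. It was not called by this probe (-0.21 in wt, adjusted p = 0.129 over all probes), while its second probe was, at -0.22 (adjusted p = 0.0467). The testis isoform Cox6b2 passed the filter but was detected on at most 2 arrays of any group, so its values of about background brightness were not read further. Cox7a2 averaged 7.70 ± 0.55 in dko and 7.80 ± 0.38 in wt after crystals and CD, against 8.06 ± 0.32 in untreated dko and 8.36 ± 0.35 in untreated wt, a change of -0.56 in wt that did not pass (adjusted p = 0.0613). Ndufa4, now assigned to complex IV, averaged 11.88 ± 0.15 in wt after crystals and CD, against 12.12 ± 0.11 in untreated wt, and was not called.

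Cox7a2l fell slightly in wt. This protein helps join complexes III and IV into supercomplexes, and the C57BL/6 strain is known to carry a shortened form. Cox7a2l measured 10.89, 10.97, 10.89, 10.97 and 10.90 in wt cells with crystals, against 11.37, 11.35, 11.37, 11.16 and 11.06 in untreated wt cells, with no overlap. The log2 change was -0.33 (SE 0.10, adjusted p = 0.0198), and with crystals and CD it was -0.35 (SE 0.10, adjusted p = 0.013). A second probe for the gene gave -0.22 in each comparison (adjusted p = 0.0776 with crystals and 0.0722 with both). In dko the changes were -0.24 with both agents (adjusted p = 0.21) and -0.19 with crystals (adjusted p = 0.736). The dko change with both agents was called with slide as a block (-0.29, adjusted p = 0.0474). The wt crystal call was lost with median scaling in place of quantile normalization (-0.24, adjusted p = 0.414), and without array number 1, 2 or 3 (adjusted p between 0.0761 and 0.107). The wt call with both agents was lost without number 3 (adjusted p = 0.0719), with median scaling (-0.33, adjusted p = 0.169) and with numbers 4 to 9 only (adjusted p = 0.308). In the authors' deposited log2 values neither wt call was made (adjusted p = 1 for both), and with numbers 4 to 9 the crystal call was lost as well (adjusted p = 0.981).

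Of the 4 genes that only share a name prefix, Dmac2 was called. It is an assembly factor for the distal membrane arm of complex I. Dmac2 measured 7.32, 7.38, 7.29, 7.31 and 7.34 in wt cells with crystals and 7.33, 7.27, 7.33, 7.11 and 6.84 with crystals and CD, against 7.72, 7.69, 7.97, 7.98 and 7.67 in untreated wt cells. Neither treated group overlapped the untreated one. The log2 change was -0.48 with crystals (SE 0.16, adjusted p = 0.0416) and -0.63 with crystals and CD (SE 0.16, adjusted p = 0.00544). In dko it was -0.53 with both agents (SE 0.18, adjusted p = 0.0654) and -0.44 with crystals (SE 0.18, adjusted p = 0.446). The dko change with both agents was called with slide as a block (-0.56, adjusted p = 0.0456). It was also called among genes detected on all arrays (adjusted p = 0.0469). Without array number 5, held only by wt groups, it was called as well (adjusted p = 0.0484). The dko arrays and their change of -0.53 were the same there, so this does not check them. The wt crystal call was lost without array number 1, 2, 3 or 4 (adjusted p between 0.079 and 0.188). It was also lost in 5 of 7 other settings: median scaling (adjusted p = 0.177), the authors' deposited log2 values (1), no detection filter (0.0729), slide as a block (0.0737) and numbers 4 to 9 only (0.747). The call with both agents was lost in the authors' deposited log2 values (-0.33, adjusted p = 1) and with numbers 4 to 9 only (-0.85, adjusted p = 0.0706). Emc8, Ndufaf2 and Dmac2l were called in none of 13 comparisons by their brightest probe. Dmac2l was called with crystals in wt without array number 4 (adjusted p = 0.0493) or 5 (-0.55, adjusted p = 0.0173). For Emc8, a subunit of a membrane complex of the endoplasmic reticulum, a second probe rose in wt by 0.40 with crystals and CD (adjusted p = 0.0265) and by 0.39 with crystals (adjusted p = 0.0375), where the brightest gave 0.37 (adjusted p = 0.205) and 0.41 (adjusted p = 0.175).

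**Figure D4:**
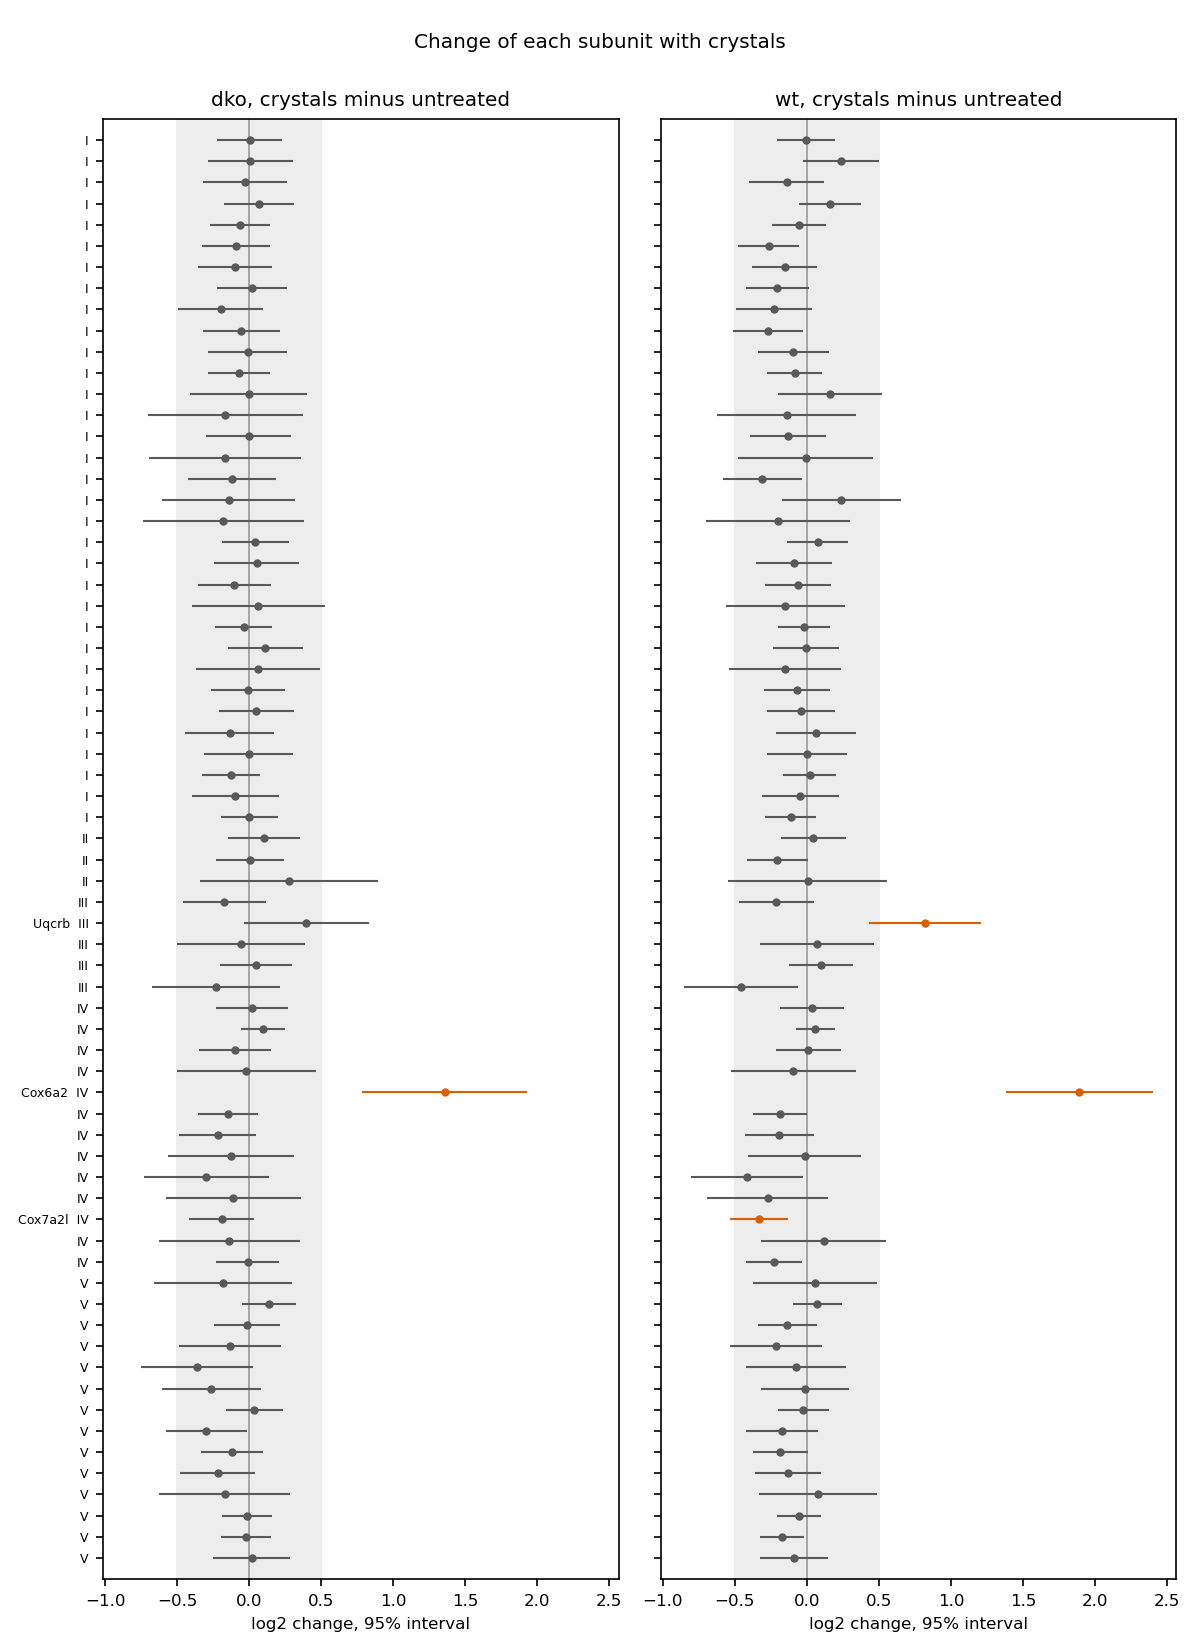
Log2 change with crystals alone (horizontal axis, points with 95% intervals) for each of the 68 subunits, one row per gene, grouped by complex with the called genes named, in dko (left) and wt (right). The grey band spans 0.5 log2 units either side of 0 and orange marks an adjusted p under 0.05: only Cox6a2 (1.36 in dko, 1.89 in wt), Uqcrb (0.82 in wt) and Cox7a2l (-0.33 in wt) are orange.

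CD after crystals, set against crystals alone, called 0 of the 72 genes in either genotype by limma. In dko, 1.8% of all genes were called, and 2 of the 72 (2.78%) had an unadjusted p under 0.05, against 12.1% of all genes. The 3 largest changes there were those of Cox6a2 (0.89, SE 0.28, adjusted p = 0.1), Uqcrh (-0.58, SE 0.22, adjusted p = 0.201) and Sdhd (-0.52, SE 0.30, adjusted p = 0.55). In wt, 0% of all genes were called, and 2 of the 72 (2.78%) had an unadjusted p under 0.05, against 7.23% of all genes. The largest changes in wt were those of Ndufab1, the mitochondrial acyl carrier protein (-0.45, adjusted p = 0.518), Atp5a1 (-0.43, adjusted p = 0.691) and Ndufb9 (-0.42, adjusted p = 0.669). CD alone in wt called 0 of the 72 and 0.895% of all genes. At an unadjusted p under 0.05 stood 4 of the 72 (5.56%) and 8.82% of all genes. After Cox6a2, Ndufb9 (-0.40) and Sdhd (-0.35) changed most there, at adjusted p of 0.61 and 0.845.

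No chain gene was called between the genotypes. In untreated cells, dko minus wt by limma called 0 of the 72 genes and 0.208% of all genes. At an unadjusted p under 0.05 stood 8 of the 72 (11.1%) and 12.3% of all genes. The largest differences were lower in dko: Ndufb10 by a log2 change of -0.58 (adjusted p = 0.334), Sdhd by -0.43 (adjusted p = 0.566) and Ndufb9 by -0.43 (adjusted p = 0.427). Of the 6 slides, 2 held only wt arrays, 3 of the 5 untreated ones among them, and over wt arrays Sdhd was 0.57 and Ndufb10 0.52 higher on those slides than on the shared ones. With slide as a block the differences were -0.18 for Ndufb10, -0.16 for Sdhd and -0.40 for Ndufb9. The median of the 72 genes was higher in dko in all 4 conditions: by 0.09 with crystals and CD (54 of 72 above 0), 0.11 with crystals (48), 0.08 with CD alone (49) and 0.10 in untreated cells (45), where the medians over all genes lay between -0.0047 and 0.0024. Array medians in untreated cells ran from 10.15 to 10.27 in dko and from 10.05 to 10.13 in wt. Stromal and neutrophil marker sums were also higher in dko, as given above. In the second deposited table, log2 of the same intensities with no normalization, the median in untreated cells was -0.23, with -0.24 over all genes. Tests of the difference asked whether the treatments act differently in the genotypes. They called 0 of the 72 for crystals, CD alone and CD after crystals, and 0.0416%, 0% and 0% of all genes. At an unadjusted p under 0.05 stood 0, 1 and 1 of the 72, against 4.66%, 1.72% and 2.19% of all genes. The 1 gene with CD after crystals was Cox6a2. Its change with CD after crystals was 0.89 in dko and -0.04 in wt, a difference of 0.93 (95% interval 0.16 to 1.69, unadjusted p = 0.0191, adjusted p = 1). Its crystal changes differed by -0.54, dko minus wt (95% interval -1.30 to 0.23, adjusted p = 1). Over wt arrays, the Cox6a2 level differed by -0.56, slides with only wt arrays minus shared ones. With crystals and CD, the wt arrays on a slide of only wt stood at 7.84, 7.21 and 6.75. Those on shared slides stood at 8.64 and 8.12. The part of the slides in these Cox6a2 differences was not tested. In wt, the test of whether CD acts differently after crystals called 0 of the 72 and 0.0486% of all genes. At an unadjusted p under 0.05 stood 0 of the 72 and 2.47% of all genes. Cox6a2 differed most, at -0.66 (95% interval -1.38 to 0.06).

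The gene lists here and below were chosen with earlier results of these data known, so their shares only describe these arrays. Among genes that build and serve the chain, counts are set beside the 6.89% of all genes higher and 7.11% lower with crystals in wt. There, 7 of 24 measured import genes (29.2%) were higher and 1 (4.17%) lower, led by Timm8a1, a chaperone of the intermembrane space (1.28, SE 0.16, adjusted p = 8.69e-07), Hspd1, the matrix chaperonin (0.998, SE 0.15, adjusted p = 2.47e-05), and Hspa9, the motor chaperone of import (0.92, SE 0.15, adjusted p = 3.39e-05). In dko, Timm8a1 rose by 0.96 with crystals and CD (adjusted p = 0.000668) and by 0.77 with crystals (adjusted p = 0.0308). Of 14 regulators of mitochondrial biogenesis, 3 (21.4%) were higher and 0 lower with crystals in wt: the coactivators Ppargc1b (1.07, adjusted p = 0.000912) and Pprc1 (0.96, adjusted p = 0.000523), and Gabpb1, a partner of the ETS factor Gabpa (0.45, adjusted p = 0.0402). Of 39 assembly factors, 3 (7.69%) were higher, namely Coa7 (0.81), Ndufaf4 (0.78) and Lrpprc (0.69), and 2 (5.13%) lower, near the shares of all genes. In dko, 0 of the 39 were called with crystals or with both agents, where 0.416% and 8.1% of all genes were called. Cytochrome c, encoded by Cycs, rose by 0.42 (adjusted p = 0.0213), and Coq10b, a coenzyme Q-binding protein, by 0.85 (adjusted p = 0.000537), 2 of the 3 genes higher among 17 electron carriers and coenzyme Q genes.

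Other lists hold genes that set how the chain is used. With crystals in wt, the inner-membrane carrier Ucp2 fell by 0.91 (adjusted p = 4.91e-05) and the pyruvate dehydrogenase kinase Pdk1 by 0.80 (adjusted p = 0.00272), and the matrix protease Lonp1 rose by 0.50 (adjusted p = 0.0384), among 4 lower (36.4%) and 1 higher (9.09%) of 11 such regulators. Of 16 glycolysis genes, 4 (25%) were higher and 0 lower, led by Hk3 (1.25), Pgam1 (1.05) and the glucose transporter Slc2a1 (0.75). With crystals alone in dko, where 0.416% of all genes were called, no regulator, glycolysis gene or antioxidant gene was called. Sod2, the matrix superoxide dismutase, was higher in 6 comparisons: by 1.42 in dko and 1.24 in wt with crystals and CD, by 1.18 in dko with CD after crystals, by 0.67 in wt with crystals, and by 1.32 in dko and 0.97 in wt with CD alone. The mitochondrial ribosome had 5 higher (6.94%) and 6 lower (8.33%) of 72 in wt with crystals, close to the shares of all genes, and the TCA cycle had 1 higher, Pdhb (0.44), of 17. The cytosolic ribosome, another set of abundant housekeeping transcripts, had 0 higher and 1 lower (Rpl22, -0.39) of 48.

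**Figure D5:**
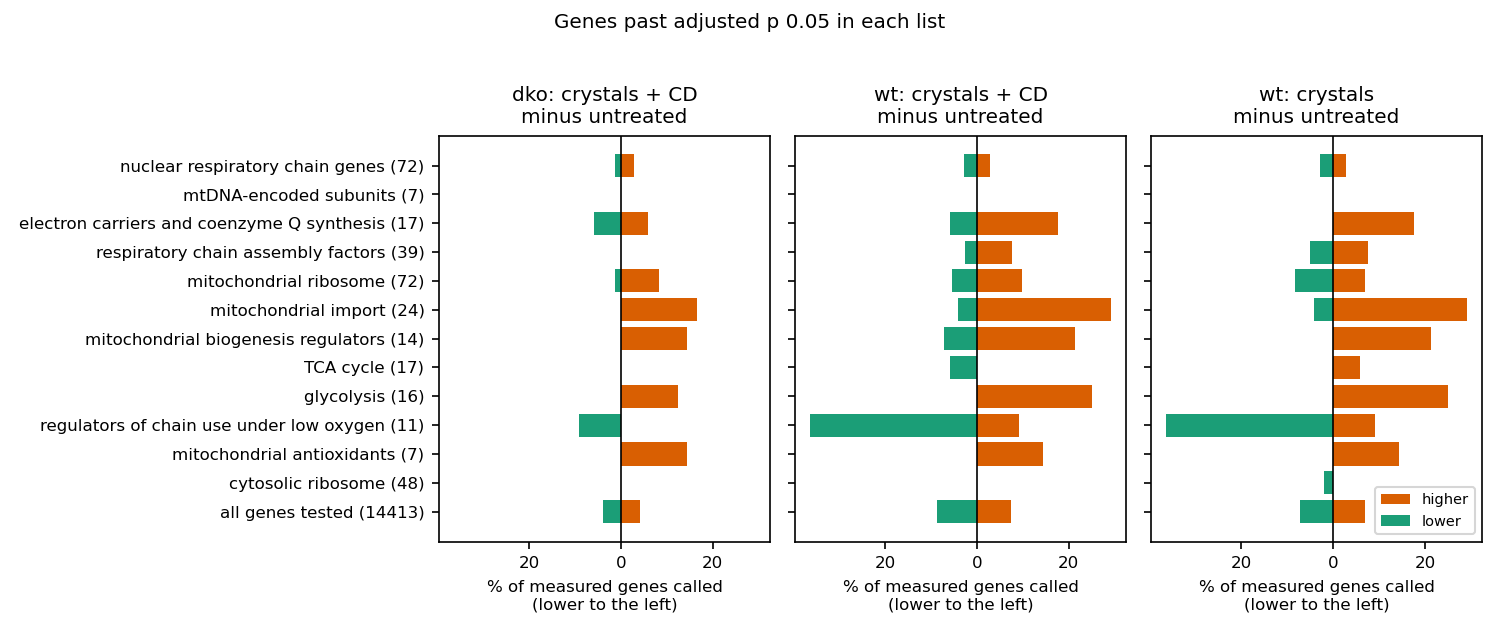
Percentage of measured genes called at an adjusted p under 0.05 (horizontal axis, higher to the right in orange and lower to the left in green) for the respiratory chain genes, 11 related lists and all genes tested (rows, with numbers measured), for crystals with CD in dko and wt and crystals alone in wt. The respiratory chain genes show 2 higher and 2 lower of 72 in wt with crystals, against 7 higher and 1 lower of 24 for import. The lists were chosen with earlier results of these data known.

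Promoters of subunit genes are known for binding sites of NRF1, of ETS-family factors such as GABPA, and of YY1. RefSeq windows of 300 bases, 250 before to 50 after a gene's start (GRCm38.p6), were at hand for 58 of the 68 subunit genes, in 63 windows. Both strands were searched for exact letters. The NRF1 letters GCGCA, any base, then GCGC were in 16 windows, or 25.4%, against 4.6% of all 32851 windows. The ETS letters CCGGAAG were in 15, or 23.8%, against 8.86%, and the YY1 letters AANATGGC were in 17, or 27%, against 6.05%. At least 1 of the 3 was in 65.1% of subunit windows and in 17.4% of all windows, or 21.4% of those of protein-coding genes. The AP-1 letters TGANTCA were in 7.94% of subunit windows against 7.81% of all. The ATF4 letters TGATGNAA were in 0 of 63 windows against 3.97% of all. The direct repeat used for liver X receptors, AGGTCA written again after 4 bases of any kind, was in 0 against 0.0152%. As only 5 of all 32851 windows held that exact repeat, its absence from 63 windows tells nothing about these genes. The ETS and YY1 letters can overlap other matches, and these counts describe letters in a window, not binding.

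The windows of Cox6a1, the uncalled isoform, of Uqcrh, which fell in dko with both agents, and of Ndufs8, an uncalled core subunit of complex I, are printed 5′ to 3′ with matched letters in capitals, to show where such letters lie. That of Cox6a1 (chr5:115348909-115349208, minus strand) holds NRF1 letters starting 162 and 117 bases before the start and ETS letters 16 bases before it. That of Uqcrh (chr4:116075021-116075320, minus strand) holds AP-1 letters 203 bases and ETS letters 10 bases before the start. That of Ndufs8 (chr19:3912725-3913024, minus strand) holds YY1 letters 165 bases before and ETS letters 15 bases after the start.
Cox6a1: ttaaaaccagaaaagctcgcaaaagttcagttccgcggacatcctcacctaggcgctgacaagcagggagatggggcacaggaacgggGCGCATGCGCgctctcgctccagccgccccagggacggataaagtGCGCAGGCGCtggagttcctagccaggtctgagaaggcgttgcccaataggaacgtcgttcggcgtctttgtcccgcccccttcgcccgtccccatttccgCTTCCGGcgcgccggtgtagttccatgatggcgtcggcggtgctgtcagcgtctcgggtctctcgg
Uqcrh: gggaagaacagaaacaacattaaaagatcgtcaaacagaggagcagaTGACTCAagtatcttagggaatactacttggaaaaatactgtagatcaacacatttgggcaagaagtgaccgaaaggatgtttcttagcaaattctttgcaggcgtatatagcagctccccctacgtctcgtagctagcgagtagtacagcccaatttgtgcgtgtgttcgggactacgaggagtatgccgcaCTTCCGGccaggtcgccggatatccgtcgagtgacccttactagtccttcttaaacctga
Ndufs8: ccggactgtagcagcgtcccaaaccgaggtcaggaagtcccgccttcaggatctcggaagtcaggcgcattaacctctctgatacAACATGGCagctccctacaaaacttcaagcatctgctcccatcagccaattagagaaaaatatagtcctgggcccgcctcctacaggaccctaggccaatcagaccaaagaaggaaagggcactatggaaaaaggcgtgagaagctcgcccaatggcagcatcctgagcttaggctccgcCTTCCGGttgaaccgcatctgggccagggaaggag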

How the data were processed

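The authors deposited a table of bead intensity and a detection p-value per probe and array, for 45281 probes and 36 arrays, with no sign of normalization. They also deposited log2 values equal to log2 of those intensities, used as an alternative. Per the submitters' processing notes, Partek was used, with no version named. Here the intensities were corrected by normexp with a background inferred from the detection p-values, offset by 16, quantile-normalized and turned into log2 levels (neqc, limma 3.58.1 in R 4.3.3). One line without a gene was left out. A group-means model over 36 arrays (lmFit, eBayes) gave p-values adjusted by Benjamini-Hochberg over 14413 genes, after a test on simulated data; the number of arrays limits the precision. Alternatives changed normalization, filter, blocks and arrays. The members and lists were chosen with earlier results of these data known. Named were every called member, the 3 of largest change where none was called, core subunits and paralogs by level (a core subunit is not reported here), and up to 3 called genes per list. Symbols were updated through RefSeq.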

Additional observations from a re-analysis of the deposited data

Results flagged for a closer look

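Of 48 sets of 4 or 5 arrays, 5 held 1 array far from the others of its group, where chance gives about 1 in 20. In untreated dko cells, Uqcrh stood at 9.93 on 1 array, with 10.68 the nearest of the others. Cox6a2 stood at 7.06 on 1 dko array with crystals, against 7.58 for the nearest, and at 6.91 on 1 dko array with CD, against 7.25. Cox7a2l stood at 10.95 on 1 dko array with crystals, where the nearest was 10.98 and the whole group lay within a narrow range. The median of the 72 genes stood at 10.28 on 1 wt array with CD, with 10.07 the nearest of the others.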

How the results depend on the processing

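Of 90 counts of called chain genes under other settings, 76 stayed within 1.5 times the reported count, and of 90 medians, 76 moved by less than the SD between arrays. Many of these counts belong to comparisons that reported 0 calls, where a count can only stay or rise. The share of steady counts thus says little on how stable the reported calls were. Crystals in wt called 2 genes with median scaling, 1 in the deposited log2 values and 1 with array numbers 4 to 9 only, against 4 reported, and the median was 0.016 in the deposited values and 0.0040 with numbers 4 to 9. Crystals in dko called 0 in the deposited values. CD alone in dko called 0 in the deposited values and 0 with no detection filter, with a median of 0.054 in the deposited values. CD after crystals in dko called 1 with the array number as a replicate block and 1 with numbers 4 to 9, and its median was 0.057 with median scaling. Both agents in wt called 1 in the deposited values (median -0.0053), 7 among genes detected on all arrays, 7 with the replicate block and 2 with numbers 4 to 9. Both agents in dko called 1 in the deposited values and 5 with slide as a block, with medians of -0.042 in the deposited values and -0.045 with median scaling. The untreated genotype median was -0.23 in the deposited values. The median genotype difference was -0.057 with median scaling and -0.046 with numbers 4 to 9 for crystals, 0.17 in the deposited values for CD alone and 0.16 with median scaling for CD after crystals. That of CD with against without crystals in wt was -0.086 with median scaling and 0.086 in the deposited values. The deposited values shift the median of all genes by -0.24, 0.15 and 0.14 in the genotype, CD difference and last comparison. Leaving out 1 array number gave 2 to 5 calls with crystals in wt (2 without number 1, 2 or 3), 0 to 1 in dko (0 without 7 or 8), and 0 with CD alone in dko. The causes were not tested. Same-numbered arrays correlated at -0.72 to 0.60 in dko (3 of 16 arrays closest to their own number) and -0.04 to 0.72 in wt (17 of 20; 27 of 30 pairs above 0.1, the others all being number 3 against untreated). Every pair was above 0.1 for CD after crystals in wt, where the block called 0 of the 72, but not for the comparisons with untreated cells, for which the numbers were not taken to pair the arrays. With both agents in wt the block added Ndufb9 (adjusted p = 0.0298), Uqcrh (0.0402) and Cox7a2 (0.0479).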

Other observations

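The mitochondrial ribosome, which makes the chain subunits encoded in mitochondrial DNA, had called genes in both directions. With crystals and CD, 6 of its 72 measured genes (8.33%) were higher and 1 (1.39%) lower in dko, against 4.07% and 4.02% of all genes. In wt 7 (9.72%) were higher and 4 (5.56%) lower, against 7.49% and 8.73% of all genes. Mrps18b, a protein of its small subunit, rose by 0.69 in dko and by 0.89 in wt (adjusted p = 1.9e-05). Mrpl52 rose by 0.70 in dko and 0.56 in wt, and Mrpl57 by 0.63 in dko and 0.69 in wt, both proteins of the large subunit. In dko, CD after crystals raised Mrpl52 by 0.78 (adjusted p = 0.0367) and lowered Mrps25, which fell by 0.46 (adjusted p = 0.0411). Etfdh, which feeds electrons from fatty acid oxidation to coenzyme Q, fell by 0.60 in dko (adjusted p = 0.00169) and by 0.49 in wt with both agents.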
